A study of Mus musculus with 6 samples.

Results

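The genes of matrix proteases and their inhibitors were taken by name from an RNA sequencing table of 28510 genes, as every gene whose name starts with Mmp or Timp and a digit, or with Adamts. The rule found 48 genes, of which 20 are Mmp, 4 Timp, 19 Adamts and 5 Adamtsl genes. These proteins remodel the protein mesh that surrounds and anchors muscle fibres. Matrix metalloproteinases (Mmp genes) are zinc enzymes, secreted or held at the cell surface, that cut collagens, basement membrane and cell surface proteins, and most are made as inactive precursors. Tissue inhibitors of metalloproteinases (Timp genes) block them. The Adamts genes encode secreted proteases that trim procollagens and cut large proteoglycans such as versican and aggrecan, while the related Adamtsl genes encode matrix proteins without a protease domain. In skeletal muscle, matrix proteases are known for their part in repair, innervation and scarring.

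RNA came from whole tibialis anterior, the muscle on the front of the shin, of C57BL/6 mice 12 months old. The 3 KO samples are labelled as null for both genes of the histone variant H2A.Z (H2A-Z.1-/- and H2A-Z.2-/-, H2afz and H2afv in the table) and as Cre positive, with Cre under the HSA (human skeletal actin) promoter, which is active in muscle fibres, so other cells of the whole muscle keep their alleles where Cre is not made. The 3 WT samples carried floxed alleles of both genes (H2A-Z.1 flox/flox and H2A-Z.2 flox/flox) without Cre, so no group controls for Cre itself. The comparison addressed the effect of H2A.Z on transcription.

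The libraries held 62318774 to 102919416 counts in KO and 35456883 to 88477775 in WT. Both targeted genes were lower in each KO library than in any WT library. The level of H2afz was 4.60 ± 0.514 CPM (counts scaled to a common library size by the TMM method) in KO and 16.5 ± 1.75 CPM in WT, and that of H2afv was 4.14 ± 0.405 CPM in KO and 18.6 ± 2.42 CPM in WT (SD, n = 3 each), at log2 fold changes of -1.85 and -2.17. Sums of 10 muscle fibre markers ran from 170863 to 223694 CPM in KO and from 255047 to 277470 CPM in WT, and Ttn (titin) alone averaged 93252 CPM in KO and 127218 CPM in WT. Of these markers 1, Tnnt3, fell in edgeR and 5 in DESeq2, while Myh2 and Mylpf had log2 fold changes of 0.46 and 0.20 and did not pass. In a whole muscle, fewer cells of a type and less RNA per cell cannot be told apart. Whether the samples are separate animals is not in the labels, so each p-value covers only sample-to-sample spread, which may be technical.

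In KO muscle 9 metalloproteinase genes, the inhibitor genes Timp1 and Timp2, Adamts3, Adamts20 and Adamtsl4 were higher, while Timp4 and the protease genes Adamts1 and Adamts9 were lower. Counts were compared with edgeR over all 16628 genes with enough counts, and a gene is said to have risen or fallen at a Benjamini-Hochberg adjusted p below 0.05. Of the 48 members, 42 were tested, 14 rose, 3 fell and 25 did not pass. Over all genes tested, 13.5% rose and 12.4% fell, 25.9% in either direction. Of the risen members 8 rose at least 2-fold, as did 7.94% of all genes tested. The median log2 fold change of KO over WT was 0.42 over the tested members and 0.01 over all genes tested. By family, 9 of 16 tested Mmp genes, 2 of 4 Timp genes, 2 of 17 Adamts genes and 1 of 5 Adamtsl genes rose. The fallen members were 1 Timp and 2 Adamts genes. No Mmp gene fell in edgeR with the low-count filter and all libraries, where 1 had a negative log2 fold change at an unadjusted p under 0.05, while Mmp9 fell in DESeq2, without that filter and without WT replicate 3, and limma-voom called 0. For 18 tested members every KO library lay above every WT library and for 5 every KO library lay below, against 21.6% and 21.0% of all genes tested. Mmp13 and Mmp25 are among the 14 risen members, the 8 risen at least 2-fold, the 9 risen Mmp genes and these 18. Both met the low-count filter through the KO libraries alone, so these counts are not independent of the filter. With WT replicate 3 left out 9 members rose, with KO replicate 1 left out also 9, and with KO replicate 1 and WT replicate 2 dropped together 8. With WT replicate 1 left out 1 member fell, and with KO replicate 3 left out also 1. In edgeR with KO replicate 1 left out no member fell, and 5 were below 0 at an unadjusted p under 0.05. The shares of all genes called with libraries left out are not given here. Whether these changes in number are particular to the members is thus not shown.

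**Figure D1:**
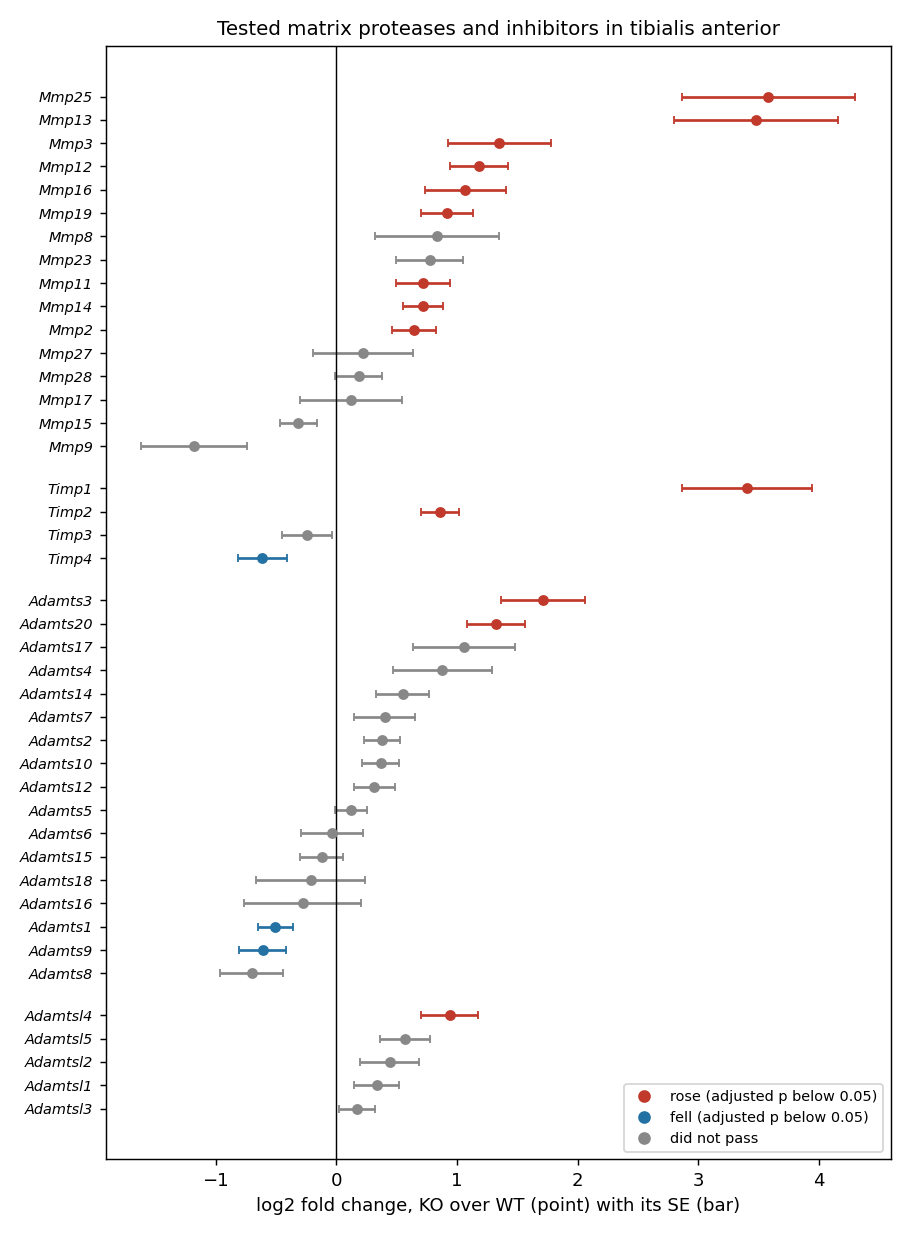
Log2 fold change of KO over WT with its SE for the 42 tested members, grouped by family (edgeR, 3 KO and 3 WT libraries). Colour marks the call at an adjusted p below 0.05. The largest values, at 3.58, 3.48 and 3.40, belong to Mmp25, Mmp13 and Timp1, and the fallen members lie between -0.61 and -0.51.

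Timp1, which encodes a secreted inhibitor of many metalloproteinases, showed the largest change among the members with more than a few counts in WT. Its counts were 1881, 629 and 710 in KO replicates 1, 2 and 3, against 157, 35 and 20 in WT replicates 1, 2 and 3. On the scaled level this was 18.5, 9.68 and 6.67 CPM in the KO libraries, against 1.93, 0.997 and 0.299 CPM in the WT libraries. Every KO library exceeded every WT library, and the levels varied widely within both groups. Timp1 rose 10.6-fold (log2 KO/WT 3.40, SE 0.54; edgeR adjusted p = 0.00164), and it passed in each of the 16 settings tried, at log2 values of 2.84 to 4.28.

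Timp2, whose product inhibits metalloproteinases and also helps MMP14 to activate the MMP2 precursor, was more abundant than Timp1 per kb in both groups. It stood at 127.7, 134.2 and 101.4 CPM in KO replicates 1, 2 and 3, against 71.8, 62.4 and 65.9 CPM in WT replicates 1, 2 and 3. The groups lay clearly apart, with KO replicate 3 the lowest KO library. Timp2 rose 1.82-fold (log2 KO/WT 0.86, SE 0.16; edgeR adjusted p = 0.00307). It passed in each of the 16 settings.

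The other inhibitor genes did not follow them. Timp4, known for its high level in heart and present in skeletal muscle, had 17.7, 15.8 and 17.1 CPM in KO replicates 1, 2 and 3, against 20.2, 21.4 and 35.7 CPM in WT replicates 1, 2 and 3. The KO libraries were close together and below all WT libraries, and WT replicate 3 was the highest. Timp4 fell 1.53-fold (log2 KO/WT -0.61, SE 0.20; edgeR adjusted p = 0.0488), and it passed in 7 of 16 settings. The call was lost with DESeq2 size factors, with library size alone, with the stricter filter, in limma-voom, without WT replicate 3 and without any one of the KO replicates.

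Timp3 encodes an inhibitor that binds to the matrix and also blocks ADAM and ADAMTS proteases. It had 105.8, 180.7 and 112.7 CPM in KO replicates 1, 2 and 3, against 154.5, 169.3 and 147.9 CPM in WT replicates 1, 2 and 3. KO replicate 2 lay above all WT libraries and the other KO libraries below them, so the groups overlapped. Timp3 did not pass (log2 KO/WT -0.24, SE 0.21; edgeR adjusted p = 0.427). Without KO replicate 2 it passed at a log2 fold change of -0.51.

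The deposited signal divided by gene length allows levels of different genes to be set side by side. On that scale the order of the inhibitors was the same in both groups at the top, with Timp3 at 4685 ± 1440 in KO and 5547 ± 398 in WT and Timp2 at 3899 ± 582 in KO and 2148 ± 152 in WT (SD, n = 3 each). In KO, the levels of Timp3 and Timp2 differed by less than the SD of Timp3. Timp1 stood at 967 ± 522 in KO and 89.3 ± 67.9 in WT, and Timp4 at 848 ± 56.6 in KO and 1296 ± 431 in WT. Timp1 was thus the lowest of the 4 inhibitors in WT, while in KO its level and that of Timp4 differed by less than the SD of Timp1. The summed level of the 4 Timp genes overlapped between groups, at 238 to 340 CPM in KO and 248 to 254 CPM in WT.

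**Figure D2:**
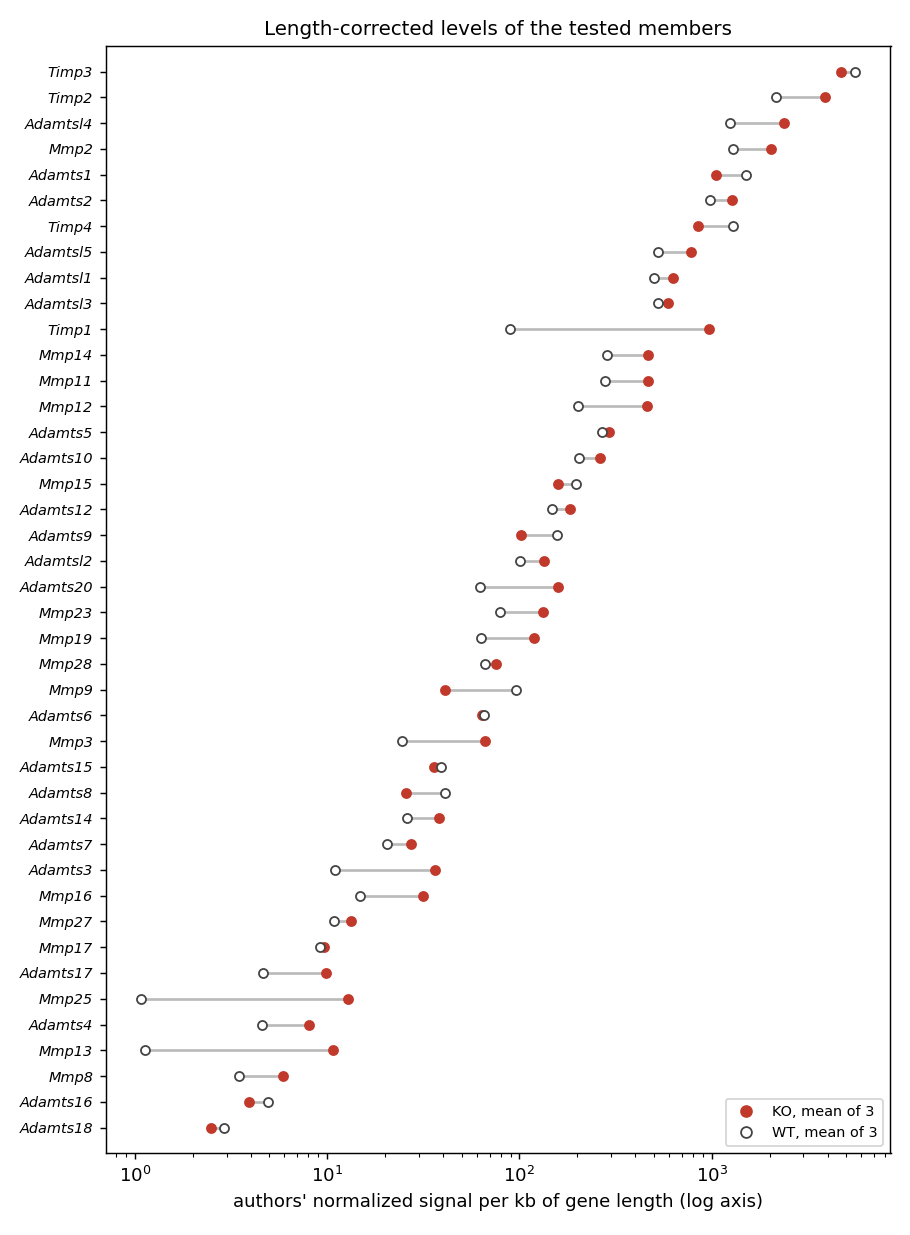
Length-corrected level of each tested member as the mean of 3 KO and of 3 WT libraries, in the authors' normalized signal per kb on a log axis. Timp3 and Timp2 are the most abundant members, and Timp1 stands at 967 in KO, near the 848 of Timp4, and at 89.3 in WT.

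Among the metalloproteinases, Mmp2 (gelatinase A, which cuts denatured collagen and basement membrane collagen) was the most abundant per kb. It stood at 2022 ± 410.5 on the length-corrected scale in KO and 1293 ± 201 in WT (SD, n = 3 each). Its scaled level was 95.4, 96.4 and 66.7 CPM in KO replicates 1, 2 and 3, against 63.0, 56.3 and 46.1 CPM in WT replicates 1, 2 and 3. KO replicate 3 lay only slightly above the highest WT library. Mmp2 rose 1.56-fold (log2 KO/WT 0.64, SE 0.18; edgeR adjusted p = 0.0254). The call was lost without WT replicate 2, WT replicate 3, KO replicate 1 or KO replicate 2.

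Mmp14 encodes the membrane-bound enzyme MT1-MMP, which activates the MMP2 precursor at the cell surface. It had 18.7, 19.1 and 13.2 CPM in KO replicates 1, 2 and 3, against 10.9, 10.4 and 9.76 CPM in WT replicates 1, 2 and 3. WT libraries were nearly equal and all KO libraries lay above them. Mmp14 rose 1.64-fold (log2 KO/WT 0.72, SE 0.17; edgeR adjusted p = 0.0105), and its call was lost only when KO replicate 1 and WT replicate 2 were dropped together. Mmp2, Mmp14 and Timp2, whose products act together in MMP2 activation, had thus each risen, by 1.56-fold to 1.82-fold.

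The other gelatinase gene, Mmp9 (gelatinase B), went the other way in value. It had 0.569, 0.431 and 0.376 CPM in KO replicates 1, 2 and 3, against 1.04, 1.71 and 0.449 CPM in WT replicates 1, 2 and 3. The KO libraries were uniformly low while WT varied widely, and KO replicate 1 lay above WT replicate 3. Mmp9 did not pass (log2 KO/WT -1.18, SE 0.44; edgeR adjusted p = 0.0700). It passed in DESeq2, without a low-count filter and without WT replicate 3.

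Other membrane-anchored enzymes rose from low levels. Mmp25 encodes MT6-MMP, a lipid-anchored enzyme known from neutrophils. It had 124, 20 and 31 counts in KO replicates 1, 2 and 3, against 3, 2 and 4 counts in WT replicates 1, 2 and 3. The WT libraries were near silence, and KO replicate 1 held most of the KO counts. The ratio of summed scaled counts was 13.0 (95% interval 6.71 to 29.0 by the exact binomial method, counting error only), with 175 counts in KO and 9 in WT. In the edgeR fit the log2 fold change was 3.58 (SE 0.72, adjusted p = 0.00509). Mmp16, which encodes MT3-MMP, had 0.854, 1.35 and 0.676 CPM in KO replicates 1, 2 and 3, against 0.491, 0.427 and 0.434 CPM in WT replicates 1, 2 and 3. It rose 2.10-fold (log2 KO/WT 1.07, SE 0.33; edgeR adjusted p = 0.0369), did not overlap between groups, and passed in 9 of 16 settings. Its call was lost in limma-voom and without any single library except KO replicate 3. Mmp15 and Mmp17, the genes of MT2-MMP and MT4-MMP, did not pass, the first at a log2 fold change of -0.31 (SE 0.16) and the other at 0.12 (SE 0.43).

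Several secreted enzymes rose as well. Mmp12 (macrophage elastase) had 8.17, 13.3 and 6.77 CPM in KO replicates 1, 2 and 3, against 4.59, 3.73 and 4.01 CPM in WT replicates 1, 2 and 3. All KO libraries exceeded the narrow WT range. Mmp12 rose 2.28-fold (log2 KO/WT 1.19, SE 0.24; edgeR adjusted p = 0.00545) and passed in each of the 16 settings. Mmp13 (collagenase-3, which cuts fibrillar collagen) had 56, 29 and 22 counts in KO replicates 1, 2 and 3, against 1, 3 and 2 counts in WT replicates 1, 2 and 3. It was thus at the edge of detection in WT and clearly detected in all KO libraries. The ratio of summed scaled counts was 12.0 (95% interval 5.32 to 33.3 by the exact binomial method, counting error only), from 107 counts in KO and 6 in WT. In the edgeR fit the log2 fold change was 3.48 (SE 0.68, adjusted p = 0.00439). Mmp13 and Mmp25 passed the low-count filter through the KO libraries alone, so their selection for testing already depended on being high in KO.

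Mmp3 (stromelysin-1, which cuts proteoglycans and activates other metalloproteinases) had 1.82, 2.29 and 0.882 CPM in KO replicates 1, 2 and 3, against 0.995, 0.313 and 0.554 CPM in WT replicates 1, 2 and 3. KO replicate 3 lay below WT replicate 1, so the groups overlapped. Mmp3 rose 2.55-fold (log2 KO/WT 1.35, SE 0.43; edgeR adjusted p = 0.0387), with its call lost without WT replicate 2, WT replicate 3, KO replicate 1 or KO replicate 2 and in limma-voom, and it passed in 10 of 16 settings. Mmp19 had 6.24, 6.51 and 4.27 CPM in KO replicates 1, 2 and 3, against 3.06, 3.50 and 2.50 CPM in WT replicates 1, 2 and 3. It rose 1.89-fold without overlap (log2 KO/WT 0.91, SE 0.21; edgeR adjusted p = 0.0109), and its call was lost without WT replicate 3. Mmp11 (stromelysin-3) had 4.49, 4.88 and 4.07 CPM in KO replicates 1, 2 and 3, against 3.35, 1.82 and 2.87 CPM in WT replicates 1, 2 and 3. It rose 1.65-fold without overlap (log2 KO/WT 0.72, SE 0.23; edgeR adjusted p = 0.0373), and its call was lost without WT replicate 2, WT replicate 3, KO replicate 1 or KO replicate 2.

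The remaining tested metalloproteinases did not pass, with log2 fold changes of 0.83 for the neutrophil collagenase gene Mmp8, 0.77 for Mmp23, 0.22 for Mmp27 and 0.19 for Mmp28. For Mmp23 every KO library lay above every WT library, and its adjusted p was 0.0626 by edgeR. The members not tested were Mmp10, Mmp20, Mmp21, Mmp24, Adamts13 and Adamts19, each with at most 3 counts in any library.

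**Figure D3:**
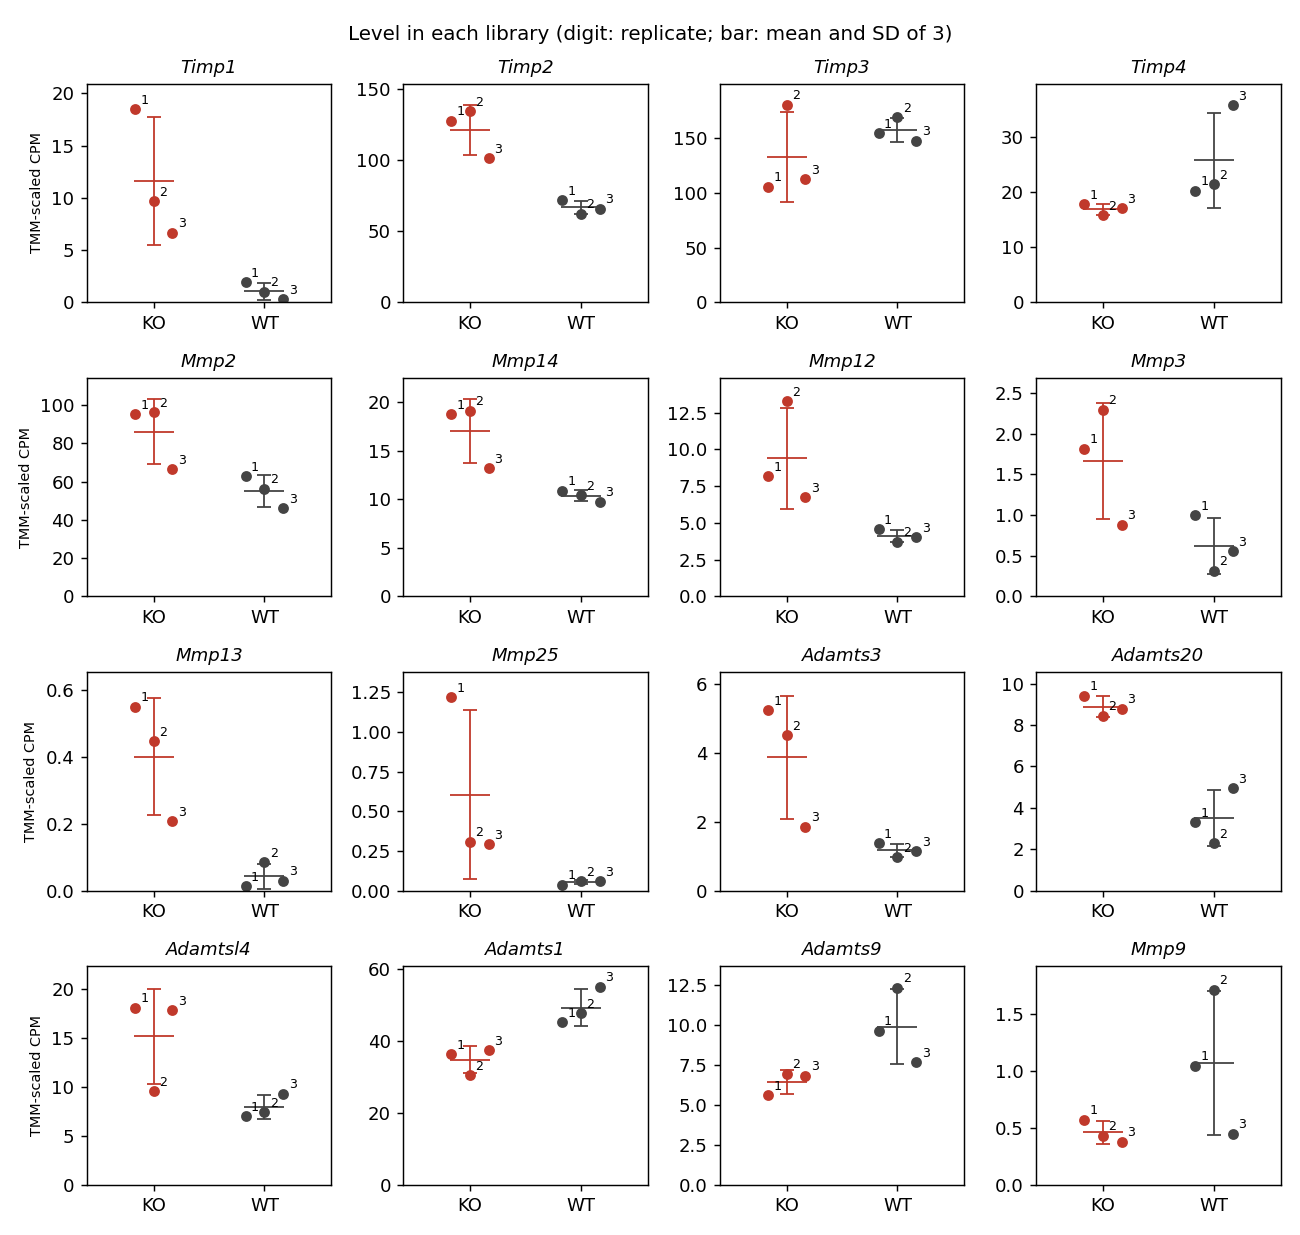
TMM-scaled CPM of 16 members in each library, with KO left of WT (digits give the replicate, bars the mean and SD of 3 libraries). Timp1 and Timp2 separate fully, at 6.67 CPM or more in KO against at most 1.93 CPM in WT for Timp1, while Timp3 overlaps, with KO replicate 2 at 180.7 CPM.

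Of the 20 Mmp members, 7 are neighbours on chromosome 9 in the reference annotation. The span from the first to the last of them holds 8 protein-coding genes, all named Mmp. Genes beyond these ends were not looked at. In order along the span the members are Mmp13, Mmp12, Mmp3, Mmp10, Mmp8, Mmp27 and Mmp20. Mmp13, Mmp12 and Mmp3, at one end of the span, rose. Mmp8 and Mmp27 did not pass, and Mmp10 and Mmp20 reached at most 3 counts in a library. Whether their fold changes differ from each other was not tested, and Mmp1b, a further gene of the span, was not analysed here.

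The promoters of these genes were searched because metalloproteinase promoters are known targets of AP-1, the Fos and Jun transcription factor. RefSeq promoter windows (GRCm38.p6, 250 bases before to 50 after a start site) were found for 33 of the 48 members, in 35 windows. The AP-1 motif TGAGTCA, on either strand, was present in 4 of these 35 windows (11.4%) and in 5.20% of all 32851 windows. The TATA motif TATAAA, on either strand, was present in 9 of the 35 windows (25.7%) and in 13.6% of all windows. Its forward and reverse forms can overlap each other, and neither overlaps the AP-1 motif. All 4 windows with the AP-1 motif, those of Mmp13, Mmp12, Mmp3 and Mmp10, also held the TATA motif, a pair found in 0.941% of all windows. These 4 genes lie in the same span of chromosome 9, so their windows may not be separate cases. The 100 bases before the start site are shown for these genes, all on the plus strand, with both motifs in capitals, and for Timp1, the most changed inhibitor, whose window held neither motif.
Mmp13, chr9:7272414-7272513: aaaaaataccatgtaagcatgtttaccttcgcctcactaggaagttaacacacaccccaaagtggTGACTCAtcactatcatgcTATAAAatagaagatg
Mmp12, chr9:7347274-7347373: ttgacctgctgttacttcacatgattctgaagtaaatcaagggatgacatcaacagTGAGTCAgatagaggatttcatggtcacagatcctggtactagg
Mmp3, chr9:7445722-7445821: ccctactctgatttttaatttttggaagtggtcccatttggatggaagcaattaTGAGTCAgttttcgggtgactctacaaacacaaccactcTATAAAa
Mmp10, chr9:7502242-7502341: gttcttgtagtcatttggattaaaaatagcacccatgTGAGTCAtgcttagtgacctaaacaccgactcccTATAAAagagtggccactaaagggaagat
Timp1, chrX:20870066-20870165: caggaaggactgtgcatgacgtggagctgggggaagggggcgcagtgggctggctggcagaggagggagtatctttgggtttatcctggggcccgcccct

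The AP-1 motif began 35 bases before the annotated start in Mmp13, 44 in Mmp12, 46 in Mmp3 and 63 in Mmp10. Mmp12 has another window with neither motif, and the TATA motif of the window shown lies just after its start. Of these genes, Mmp13, Mmp12 and Mmp3 rose, and Mmp10 had 0, 3 and 1 counts in KO replicates 1, 2 and 3 and no count in WT. Mmp10 was not tested. The AP-1 motif was in 3 of 12 windows of risen members and in 0 of 18 windows of the other tested members. The 12 windows cover 11 of the 14 risen members, as Mmp2, Mmp16 and Mmp19 had no window. All 3 windows with the motif lie in the same span of chromosome 9. Mmp13 was tested only through its KO counts, and Mmp10 is on neither side, so no conclusion is drawn from this contrast. Whether the motif bears on the changes was not tested. A match describes these letters only and says nothing of binding.

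Among the ADAMTS proteases, Adamts3, which encodes a procollagen N-proteinase that also activates the lymphatic growth factor VEGF-C, had the largest value. It stood at 5.24, 4.52 and 1.86 CPM in KO replicates 1, 2 and 3, against 1.38, 0.969 and 1.15 CPM in WT replicates 1, 2 and 3. KO replicate 3 was far below the other KO libraries and still above all WT libraries. Adamts3 rose 3.28-fold (log2 KO/WT 1.71, SE 0.35; edgeR adjusted p = 0.00554) and passed in each of the 16 settings. The other procollagen N-proteinase genes, Adamts2 and Adamts14, also had every KO library above every WT library. They did not pass, Adamts2 at a log2 fold change of 0.38 (SE 0.15) and Adamts14 at 0.55 (SE 0.22).

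Adamts20, a proteoglycan-cutting protease gene known in mouse for its role in pigment cell development, had 9.43, 8.45 and 8.80 CPM in KO replicates 1, 2 and 3, against 3.32, 2.28 and 4.95 CPM in WT replicates 1, 2 and 3. The KO libraries were within a narrow range, above all WT libraries. Adamts20 rose 2.50-fold (log2 KO/WT 1.32, SE 0.24; edgeR adjusted p = 0.00315) and passed in each of the 16 settings.

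Adamts1 and Adamts9, whose products cut versican, fell. This was not shared by all genes of proteoglycan-cutting ADAMTS proteases, as Adamts20 rose and Adamts4 and Adamts5 did not pass. Adamts1, the most abundant Adamts protease gene in WT per kb, had 36.3, 30.4 and 37.3 CPM in KO replicates 1, 2 and 3, against 45.1, 47.6 and 55.1 CPM in WT replicates 1, 2 and 3. The groups did not overlap. It fell 1.42-fold (log2 KO/WT -0.51, SE 0.15; edgeR adjusted p = 0.0265), and it passed in 10 of 16 settings. The call was lost with library size alone, without any single WT replicate and without KO replicate 1. Adamts9 had 5.59, 6.96 and 6.82 CPM in KO replicates 1, 2 and 3, against 9.64, 12.3 and 7.68 CPM in WT replicates 1, 2 and 3. It fell 1.53-fold without overlap (log2 KO/WT -0.61, SE 0.19; edgeR adjusted p = 0.0383), and it passed in 9 of 16 settings. That call was lost with library size alone and without WT replicate 1, WT replicate 2 or any one of the KO replicates. Adamts8 was lower in every KO library than in every WT library but missed the threshold (log2 KO/WT -0.70, SE 0.26; edgeR adjusted p = 0.0737).

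The aggrecanase genes did not pass. Adamts4 had 0.648, 0.431 and 0.404 CPM in KO replicates 1, 2 and 3, against 0.184, 0.427 and 0.239 CPM in WT replicates 1, 2 and 3 (log2 KO/WT 0.88, SE 0.41; edgeR adjusted p = 0.142). Adamts5 had 34.1, 32.8 and 32.2 CPM in KO replicates 1, 2 and 3, against 33.9, 29.7 and 27.5 CPM in WT replicates 1, 2 and 3 (log2 KO/WT 0.12, SE 0.13; edgeR adjusted p = 0.550). The groups overlapped for both genes, and Adamts5 was the more abundant by far, at 291 ± 12.1 against 8.04 ± 2.28 for Adamts4 per kb in KO. The 13 Adamts genes that did not pass had log2 fold changes of -0.70 to 1.06. The summed level of the Adamts genes was 142 ± 7.35 CPM in KO and 139 ± 2.53 CPM in WT, against 141 ± 25.0 CPM in KO and 92.1 ± 11.4 CPM in WT for the Mmp genes (SD, n = 3 each).

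Of the protease-like matrix proteins, Adamtsl4, which binds fibrillin microfibrils and is known for its role in holding the lens, had 18.1, 9.53 and 17.8 CPM in KO replicates 1, 2 and 3, against 7.02, 7.41 and 9.31 CPM in WT replicates 1, 2 and 3. KO replicate 2 lay just above the highest WT library. Adamtsl4 rose 1.92-fold (log2 KO/WT 0.94, SE 0.23; edgeR adjusted p = 0.0147), and its call was lost without WT replicate 1 or KO replicate 1. The other Adamtsl genes had log2 fold changes of 0.17 to 0.57 and did not pass. The most abundant of all Mmp, Adamts and Adamtsl genes per kb in KO was Adamtsl4, at 2389 ± 775 in KO and 1248 ± 191 in WT (SD, n = 3 each), a lead over Mmp2 in KO that is smaller than either gene's SD in KO.

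The authors' deposited table gave 13 members as up and 3 as down by an adjusted p below 0.05, against 12.2% up and 12.4% down among the genes tested here. All 13 and all 3 rose and fell here too. The exception among the genes that rose here was Mmp16, with an adjusted p of 0.0703 in the authors' deposited table. For Timp1, Mmp13 and Mmp25 the deposited log2 fold changes were smaller, at 1.91, 1.82 and 2.04, against 3.40, 3.48 and 3.58 in edgeR. The cause of this difference was not tested.

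Other genes of the system were followed through lists chosen with earlier results of these data known. Of 19 tested regulators of matrix proteases, 9 rose and 2 fell, with a median log2 fold change of 0.57, against 13.5% and 12.4% of all genes. Cd44, a hyaluronan receptor that can hold proteases at the cell surface, rose by 1.98 on the log2 scale (SE 0.23; edgeR adjusted p = 0.000260). It had 41.6, 40.1 and 24.6 CPM in KO replicates 1, 2 and 3, against 11.3, 7.30 and 8.14 CPM in WT replicates 1, 2 and 3. Spock2, which encodes the matrix proteoglycan testican-2, rose by 1.23 (SE 0.15), and the inhibitor gene Serping1 (complement C1 inhibitor) rose by 1.13 (SE 0.20), both on the log2 scale. Each of these 3 genes was higher in all KO than in all WT libraries. Furin, whose product activates membrane-type metalloproteinases, and Papln fell, at -0.46 (SE 0.14) and -0.98 (SE 0.26). The risen regulators numbered 4 when KO replicate 1 and WT replicate 2 were dropped together, and 6 without either WT replicate 3 or KO replicate 1. The fallen regulators numbered 1 in edgeR without any one of the libraries except WT replicate 3.

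Of 14 tested ADAM and astacin protease genes, 4 rose (28.6%, against 13.5% of all genes tested), with a median log2 fold change of 0.32. Adam19 and Adam8, genes of membrane-bound proteases, rose by 1.20 (SE 0.18) and 1.73 (SE 0.41) on the log2 scale, Adam17, the gene of the enzyme that sheds tumour necrosis factor, by 0.47 (SE 0.15), and the procollagen C-proteinase relative Tll2 by 1.57 (SE 0.53). The Tll2 call lay at the threshold (adjusted p = 0.0498 by edgeR). Without WT replicate 1, WT replicate 3, KO replicate 1, KO replicate 2 or KO replicate 3, 2 of these genes rose, and without both WT replicate 2 and KO replicate 1, 1 rose.

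Of 15 tested genes of known ADAMTS substrates, 3 rose (20.0%) and 1 fell (6.67%), near or below the 13.5% and 12.4% of all genes tested, with a median log2 fold change of 0.58. Reln, Bgn and Ltbp1, which encode reelin, the small proteoglycan biglycan and a binding protein of latent TGF-beta, rose by 1.03 (SE 0.15), 1.09 (SE 0.21) and 0.65 (SE 0.13) on the log2 scale. Vwf, the gene of von Willebrand factor of endothelial cells, fell, at a log2 fold change of -0.67 (SE 0.15). Of 16 tested genes of known MMP substrates, 3 rose (18.8%, near the 13.5% of all genes tested), with a median log2 fold change of 0.45. They were the matrix genes Tnc (tenascin C), Spp1 (osteopontin) and Dcn (decorin), at 1.67 (SE 0.32), 1.76 (SE 0.46) and 1.16 (SE 0.30). Nid1, which encodes the basement membrane protein nidogen-1, did not pass at 0.49 (SE 0.18). Without KO replicate 3, 6 of the ADAMTS substrate genes and 7 of the MMP substrate genes rose, and without WT replicate 3, 1 of the MMP substrate genes rose.

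Markers of macrophages, fibroblasts and tendon were higher in KO along with the risen members, read against 13.5% of all genes tested that rose and 12.4% that fell. Of 14 macrophage markers 10 rose, among them the defining genes Adgre1, by 1.52 (SE 0.26), and Cd68, by 1.51 (SE 0.37), on the log2 scale, and their summed level ran from 278 to 412 CPM in KO and from 89.8 to 200.5 CPM in WT. Of 12 fibroblast markers 5 rose (1 with WT replicate 3 left out, 2 with KO replicate 2 left out, and 3 with either KO replicate 1 or WT replicate 2 left out), Pdgfra among them at 0.66 (SE 0.22), with sums of 1841 to 2526 CPM in KO and 1225 to 1769 CPM in WT. Of 10 tendon markers 7 rose, with sums of 328 to 692 CPM in KO and 145 to 249 CPM in WT, including Tnmd at 2.35 (SE 0.55). The defining tendon gene Scx did not pass, at 0.36 (SE 0.20). Of 10 endothelial markers 1, Vwf, fell (3 without KO replicate 3), a share of 10.0% and so below that of all genes, with sums of 242 to 304 CPM in KO and 324 to 367 CPM in WT, and Pecam1 did not pass, at -0.22 (SE 0.15). Of 4 tested neutrophil markers, of 11 listed, 1 rose, namely Csf3r, with sums of 3.86 to 5.09 CPM in KO and 3.05 to 3.86 CPM in WT. The neutrophil genes S100a8 and S100a9 were near 0, at 0.265 ± 0.144 and 0.128 ± 0.0829 CPM in KO and 0.309 ± 0.098 and 0.357 ± 0.139 CPM in WT (SD, n = 3 each). Of the 8 satellite cell markers, which mark muscle stem cells, 0 passed in edgeR, DESeq2 and limma-voom, and 0 had an unadjusted p under 0.05 in each, while 2 rose without KO replicate 2.

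KO replicate 3 was the KO library with the lowest sum of macrophage, fibroblast and tendon markers, and it was also the lowest KO library for 12 of the 14 risen members. KO replicate 1 was the highest KO library for 6 of them and KO replicate 2 for 8. The same counts were not taken over all genes that rose, so whether they are particular to the members is not known. The part of these cell types in the members' changes was not tested.

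**Figure D4:**
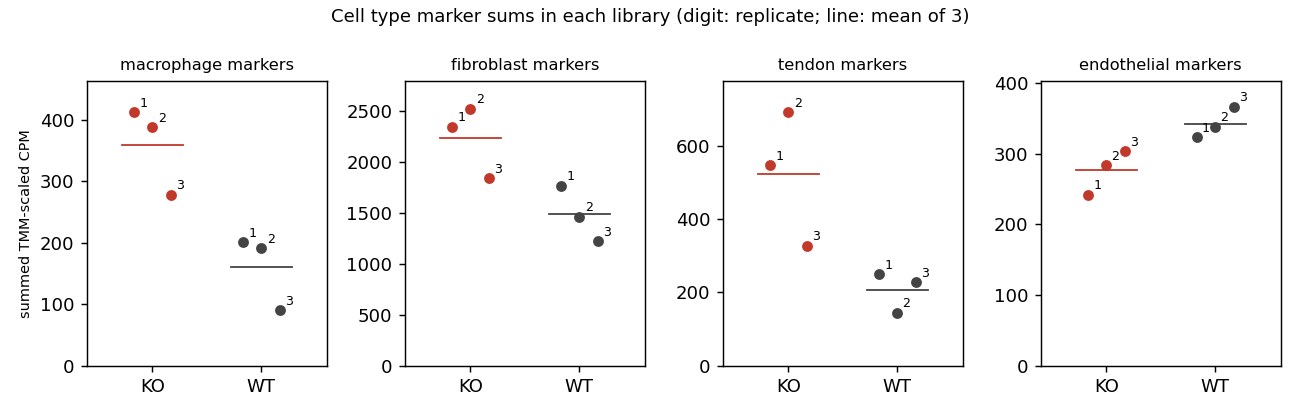
Summed TMM-scaled CPM of 14 macrophage, 12 fibroblast, 10 tendon and 10 endothelial markers in each library, KO left of WT, with lines at the mean of 3 libraries. The first 3 sums are higher in every KO library than in every WT library and lowest in KO replicate 3 among the KO libraries, and the endothelial sum is lower in every KO library.

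Some members share exon sequence with a gene on the other strand in the reference annotation, and without the strand setting of the counting their reads could not be told apart. Mmp19 shares 22.3% of its exon bases with Tmem198b, which had 197 to 343 counts in KO and 83 to 214 in WT. Timp3 shares 21.3% with Syn3, which had 38 to 48 counts in KO and 18 to 35 in WT, a small number beside the counts of Timp3. Mmp11 shares 5.58% with Chchd10, which had 28592 to 61034 counts in KO and 12808 to 38729 in WT, far above the counts of Mmp11. Adamts9 shares 9.18% with A730049H05Rik, which had at most 10 counts in a library. Timp1 lies within Syn1 on the other strand and shares no exon base with it.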

How the data were processed

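RNA was measured in tibialis anterior of 3 KO and 3 WT samples, grouped by their genotype and title. A strand-specific kit with removal of ribosomal RNA was used, per the labels' protocols. Build mm9 and the tools HTSeq 0.6.1, TopHat2 2.0.14, Bowtie and bcl2fastq 2.17.1.14 are listed, without roles, in the submitters' processing notes. Which annotation was used, and whether counting used strand, the labels and headers do not state. The authors deposited raw counts of reads per gene and, per the file headers, a normalized signal per kb of gene length. The authors also deposited a log2 fold change per gene with its p-value and adjusted p-value, from a test that the labels do not name.

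Counts were used as deposited in edgeR 4.0.16 (R 4.3.3; TMM, filterByExpr with a minimum count of 10 and total of 15, quasi-likelihood F test, no covariate, Benjamini-Hochberg over 16628 genes). The SE is the size of the log2 fold change over the square root of F. The low-count filter's cutoff was met in all 6 libraries by 38 of the 42 tested members. Intervals cover counting error only, since counts were summed over the libraries of a group. Reads are not independent molecules, so the intervals may be too narrow even for that. On simulated counts for KO against WT (16209 genes in that step), edgeR recovered 84% of the genes set to a log2 change of 1 and 99% of those set to 2, and called 7 unchanged genes. The 200 changed genes, far fewer than were called in the data, were drawn from those averaging above 1 CPM. Their dispersion was taken from the trend over all genes, not gene by gene. Recovery of members below that level, such as Mmp13 and Mmp25, was thus not tested. The 15 alternatives were other scalings, filters and tools (DESeq2 1.42.0, limma-voom 3.58.1), robust dispersion, a replicate block and left-out libraries.

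Values are given for called members, for the Timp genes, Mmp2, Mmp3, Mmp9, Mmp14, Adamts1, Adamts4 and Adamts5, for up to 4 genes of lowest p per list, and for defining cell type markers. Some values covered by this rule are not reported here. Furin, Papln, Csf3r, Ttn, Tnnt3, Myh2, Mylpf and the other uncalled members named were picked with their values in view. The members and lists were chosen with earlier results of these data known. All 148 list symbols were found, Adgre1 under the older name Emr1. Gene types, order and exon overlaps came from GENCODE M21 (GRCm38), where all 48 members matched by identifier, and promoters from RefSeq (GRCm38.p6). These builds differ from mm9, so coordinates are given for promoter sequences alone.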

Additional observations from a re-analysis of the deposited data

How the results depend on the processing

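Over the 15 alternatives none of the 21 members followed one by one reversed its direction. They were the called members with Timp3, Mmp9, Adamts4 and Adamts5. For the other members named, direction was not followed. Members that rose numbered 9 to 14 with 1 library left out. Leaving out WT replicate 2 together with KO replicate 1 gave 8, all among the 14, with the calls of Mmp2, Mmp3, Mmp11, Mmp14, Mmp16 and Adamtsl4 lost. Members that fell numbered 0 to 2 with 1 library left out, and 0 in edgeR without that pair, where 3 were below 0 at an unadjusted p under 0.05. Without a low-count filter 5 fell, as did 8.16% of all genes tested in that setting. With library size alone 20 rose and 0 fell in edgeR, with 0 below 0 at an unadjusted p under 0.05, and the median over all genes tested moved to 0.22 on the log2 scale, against 0.01. DESeq2 called 16 up and 4 down, against 14.7% and 14.1% of all genes tested, and limma-voom called 13 and 2. The shares of all genes called by limma-voom and with libraries left out are not given here. Over all settings the risen regulators numbered 4 to 12 (9 as reported), the ADAM and astacin genes 1 to 6 (4), the ADAMTS substrate genes 2 to 7 (3) and the MMP substrate genes 1 to 7 (3). The cause of these shifts was not tested. Of the 17 called members, 5 passed in all settings (Timp1, Timp2, Mmp12, Adamts3 and Adamts20). Mmp13 and Mmp25 passed in every setting that tested them but were below the stricter filter. They met the main filter through the KO libraries alone, so their passing is weaker support. With a replicate block 16 members rose and 3 fell. Deviations of same-numbered samples correlated at 0.0604, 0.0154 and 0.0632, too weakly for the numbers to be taken as pairs, although each KO sample matched its own number best, which is a hint from the data and not from the design. Mmp8 had 7 to 34 counts per KO library and 5 to 8 per WT library, and whether depth limited its call was not tested.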
